A study of Homo sapiens with 2 samples.

Results

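The cells described here carried a single guide RNA (gRNA) against DNMT3A or DNMT3B, the de novo DNA methyltransferases, and were set against cells with a single non-targeting gRNA. A gRNA was called in a cell at more than 3 unique molecular identifiers (UMIs, each standing for 1 captured molecule), and cells with exactly 1 called gRNA were kept. This gave 55 cells, 20 with a DNMT3A gRNA and 35 with a DNMT3B gRNA, of 5744 cells in all and of 3189 with exactly 1 gRNA, against 696 non-targeting cells. The experiment was a CROP-seq screen, in which the gRNA is read from each cell's own transcripts beside the transcriptome. All groups were A549 cells, a human lung adenocarcinoma line, with an inducible Cas9 (the series' texts name both tamoxifen and doxycycline as inducer), transduced with 1 lentiviral pool of 120 gRNAs, at 0.3 viral particles per cell. They were selected with puromycin for 10 to 14 days, induced for 2 days and grown for 5 further days, so the non-targeting cells shared the virus, the selection and Cas9. Both libraries, 10x Chromium 3′ transcriptome and gRNA, came from this single culture.

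DNMT3A and DNMT3B place methyl groups on cytosines in DNA that carried none on either strand, while DNMT1, brought to replicated DNA by UHRF1, copies the existing pattern onto the new strand. Methylation at promoters is a known brake on germline, imprinted and some tissue-specific genes. In cells that divide, DNMT1 keeps most of the pattern, and DNMT3A and DNMT3B fill gaps and methylate the bodies of transcribed genes. The comparison asks which transcripts differed when either de novo enzyme was targeted. With 1 culture there was no replicate of any condition and no test was possible, so values carry exact 95% Poisson intervals that cover counting error only, and the range over single non-targeting gRNAs, the 15 of them that had 10 cells or more, is given as a measure of spread. Neither cells of 1 culture nor gRNAs to 1 gene are replicates. The gRNA counts also take a gRNA with 1 mismatch as intact, so some of the cells compared may have carried a mutant gRNA.

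The gRNAs were spread unevenly over the cells. DNMT3A_gRNA3 was alone in 11 cells, DNMT3A_gRNA4 in 5, DNMT3A_gRNA2 in 3 and DNMT3A_gRNA1 in 1, and DNMT3B_gRNA3 was alone in 22 cells, DNMT3B_gRNA4 in 7, DNMT3B_gRNA2 in 4 and DNMT3B_gRNA1 in 2. The target sites of the 3 best represented gRNAs that could be placed are shown because most of the values below come from their cells, with 20 bases in lower case and the PAM that Cas9 needs beside them in capitals, 5′ to 3′ in GRCh38 on the strand of the gRNA.
DNMT3A_gRNA3: gtaccgcaaagccatctacgAGG
DNMT3A_gRNA4: gagtgacactgccaaggccgTGG
DNMT3B_gRNA3: gacttgacaggcgatggcgaCGG
The DNMT3A_gRNA3 site lies at chr2:25247062-25247081 on the minus strand, the strand of the gene, in coding exon 9 of 23, after 40.5% of the coding bases. The DNMT3A_gRNA4 site lies at chr2:25246704-25246723 on the same strand in exon 10, after 43.6% of them. The DNMT3B_gRNA3 site lies at chr20:32784758-32784777 on the plus strand, again that of the gene, in exon 4 of 23 and after 8.64% of the coding bases. Thus DNMT3A was aimed at near the middle of its coding sequence and DNMT3B near its start. The DNMT3A_gRNA1 and DNMT3A_gRNA2 sites lie in exons 7 and 8, the DNMT3B_gRNA1 and DNMT3B_gRNA2 sites in exons 2 and 3, and DNMT3B_gRNA4 was not placed.

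The pooled DNMT3A or DNMT3B cells held 1796193 transcriptome UMIs (708010 in DNMT3A cells, 1088183 in DNMT3B cells), against 25154674 in non-targeting cells. Median UMIs per cell were 35219 in DNMT3A cells, 29024 in DNMT3B cells and 33581.5 in non-targeting cells, and 3 of the 55 cells, against 46 of the 696, had under 10000. The called gRNA had a median of 45 UMIs (range 5 to 178) in the DNMT3A or DNMT3B cells and 43 in non-targeting cells. The keratins KRT7, KRT8 and KRT18 and the A549 marker AKR1B10 were detected in all 55 cells, EPCAM in 7, and of the lung lineage genes SFTPC in 2 (3.64%, against 0.287% of non-targeting cells) and NKX2-1 and SFTPB in none. The whole list of lung epithelium and A549 markers summed to 19161 CPM (UMIs per 1000000 UMIs of the pool), against 16697 CPM in non-targeting cells, fibroblast markers to 8.35 against 4.45 CPM, blood cell markers to 9.46 against 7.99 CPM and endothelial markers to 0.56 against 0.16 CPM. Detected among them were LUM in 7 of the 55 cells (12.7%, against 3.16% of non-targeting cells), COL1A1 in 7, CD14 in 9, CD79A in 1 and CDH5 in 1, while the defining markers PTPRC, CD3E, COL1A2, DCN, VWF and KDR were at 0. The part of these markers in the results was not tested.

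The targeted transcripts were too sparse to check the knockout. DNMT3A had 4 UMIs in DNMT3A cells (2 with DNMT3A_gRNA2, 2 with DNMT3A_gRNA3, 0 with the others), or 5.65 CPM (1.54 to 14.5), against 216 UMIs or 8.59 CPM (7.48 to 9.81) in non-targeting cells. This is 65.8% of the non-targeting level, with an interval of 17.8 to 171% that holds both a large loss and none. In DNMT3B cells the DNMT3A transcript had 13 UMIs, 11.9 CPM or 139% of the non-targeting level (72.9 to 243%), and single non-targeting gRNAs ran between 0 and 12.9 CPM. DNMT3B had 1 UMI in DNMT3B cells, 0.919 CPM or 44.5% (1.10 to 259%), and 0 UMIs in DNMT3A cells, where a count of 0 still allows up to 4.24 CPM, against 52 UMIs or 2.07 CPM in non-targeting cells. A change of DNMT3B was therefore not detectable at this depth. The libraries read the 3′ end of transcripts, away from the target sites, so the edit itself was not read. A transcript level would measure it only indirectly.

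DNMT1, the maintenance enzyme, was deep enough to measure. It had 49 UMIs or 69.2 CPM in DNMT3A cells (87.2% of the non-targeting level, 64.3 to 116%) and 59 UMIs or 54.2 CPM in DNMT3B cells (68.3%, 51.8 to 88.5%), against 1997 UMIs or 79.4 CPM in non-targeting cells. Both together were at 75.7% (61.8 to 91.9%), an interval below the non-targeting level, but single non-targeting gRNAs spanned 58.7 to 99.8 CPM, which holds the pooled 60.1 CPM. UHRF1 had 17 UMIs or 9.46 CPM in the DNMT3A or DNMT3B cells, 77.3% (44.4 to 126%) of the 12.2 CPM in non-targeting cells.

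**Figure D1:**
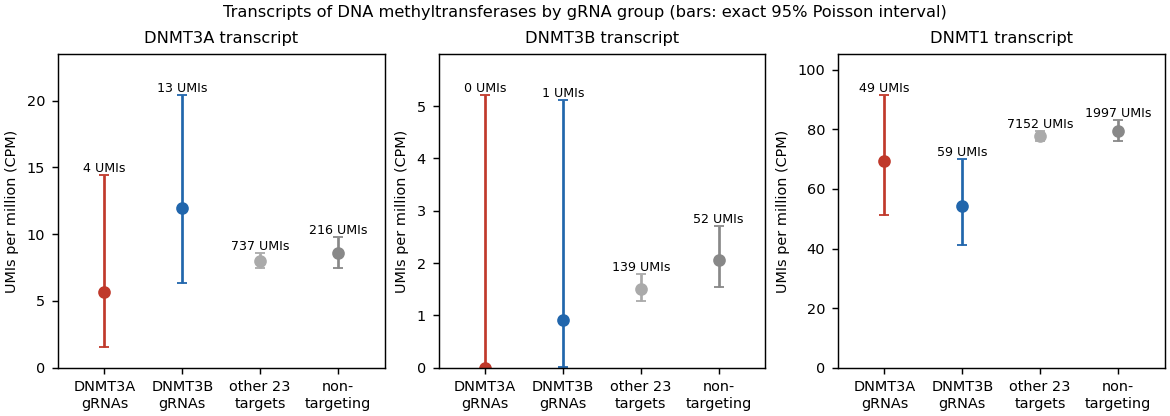
CPM of the DNMT3A, DNMT3B and DNMT1 transcripts in cells with DNMT3A gRNAs, DNMT3B gRNAs, gRNAs of the other 23 targets and non-targeting gRNAs, with exact 95% Poisson intervals and the UMIs behind each point. The intervals of DNMT3A and DNMT3B in the targeted cells hold the non-targeting level, and only DNMT1 has 49 or more UMIs in each targeted group.

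The cells of DNMT3A_gRNA3 and DNMT3B_gRNA3 stood apart from the rest in their chromosome 8 genes. This was noticed after the values were seen. Over the 287 measured genes of chromosome 8 the pooled median log2 ratio was 0.18, and 80.1% of them were above 0, against 45.9% of all measured genes. The chromosome 8 medians were 0.24 with DNMT3A_gRNA3 and 0.27 with DNMT3B_gRNA3 but -0.17 with DNMT3A_gRNA4 and 0.04 with DNMT3B_gRNA4. The other 22 chromosomes had medians between -0.08 and 0.02, and single non-targeting gRNAs had chromosome 8 medians between -0.12 and 0.04. The pooled shift ran along the chromosome, with medians of 0.12 to 0.38 in 14 windows of 10 Mb. These held 283 of the 287 genes and did not include 130 to 140 Mb. In DNMT3A cells alone the median was -0.05 at 60 to 70 Mb and 0.03 at 100 to 110 Mb.

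In single cells the difference was a split rather than a shift of all cells. Chromosome 8 genes took a median of 3.41% of the UMIs of DNMT3A_gRNA3 cells and 3.50% of those of DNMT3B_gRNA3 cells, against 2.71% in non-targeting cells. Above 3.14%, the 95th percentile of non-targeting cells, lay 9 of the 11 DNMT3A_gRNA3 cells, 16 of the 22 DNMT3B_gRNA3 cells and 1 of the other 22 DNMT3A or DNMT3B cells, against 35 of 696 non-targeting cells (5.03%) and 6.28% of the cells with gRNAs of other targets. Within 0.1 percentage points of that limit were 1, 1 and 2 of these cells and 24 non-targeting cells. Of the 81 other gRNAs with at least 10 cells, medians ran between 2.56 and 3.37%, the highest with ATAD2_gRNA4 and the next, 2.87%, with HDAC1_gRNA3. The trait was not particular to these gRNAs: cells above the limit made up 19 of 28 with ATAD2_gRNA4, 5 of 12 with EZH2_gRNA2, 12 of 40 with TDG_gRNA3 and 3 of 3 with the non-targeting CTRL00096. Among the DNMT3A and DNMT3B gRNAs of at least 5 cells it was seen with 1 of each target. Its part in the results below was not tested, and values without both gRNA3 are given beside the counts, the main genes and the list medians that moved.

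FXYD2, a regulatory subunit of the sodium-potassium pump, marked a part of these cells. All 174 UMIs in the 55 cells were in DNMT3B_gRNA3 cells, in 15 of the 16 with a high chromosome 8 share and 0 of the 6 others, and it was at 0 in the 33 cells of the other gRNAs, which allows up to 2.88 CPM. The 16 cells had 293 CPM (251 to 340), against 13.1 CPM in non-targeting cells, of which 83 of 696 (11.9%) held a UMI. Thinned to 8900 UMIs per cell, 13 of the 16 cells and 48 of 653 non-targeting cells (7.35%) still held one. DNMT3B_gRNA3 had the highest FXYD2 level of the 83 gRNAs with at least 10 cells, 231 CPM, ahead of MVD_gRNA4 with 118 CPM. FXYD2 lies on chromosome 11, and the 9 DNMT3A_gRNA3 cells with a high chromosome 8 share held none of its UMIs, so the 2 features did not go together across the gRNAs.

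DNMT3B_gRNA3 was also found beside other gRNAs. It was called in 34 cells, 12 of them with another gRNA, and in 9 of these the other was TRMT112_gRNA4, at 10 to 58 UMIs. These 9 cells are outside the comparison, which takes cells with 1 gRNA. Their chromosome 8 share was 2.73% in the median, 1 of the 9 lay above the limit and 0 held FXYD2, so they resembled non-targeting cells in both measures and not the DNMT3B_gRNA3 cells compared here. TRMT112_gRNA4 itself was called in 25 cells and alone in 11.

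**Figure D2:**
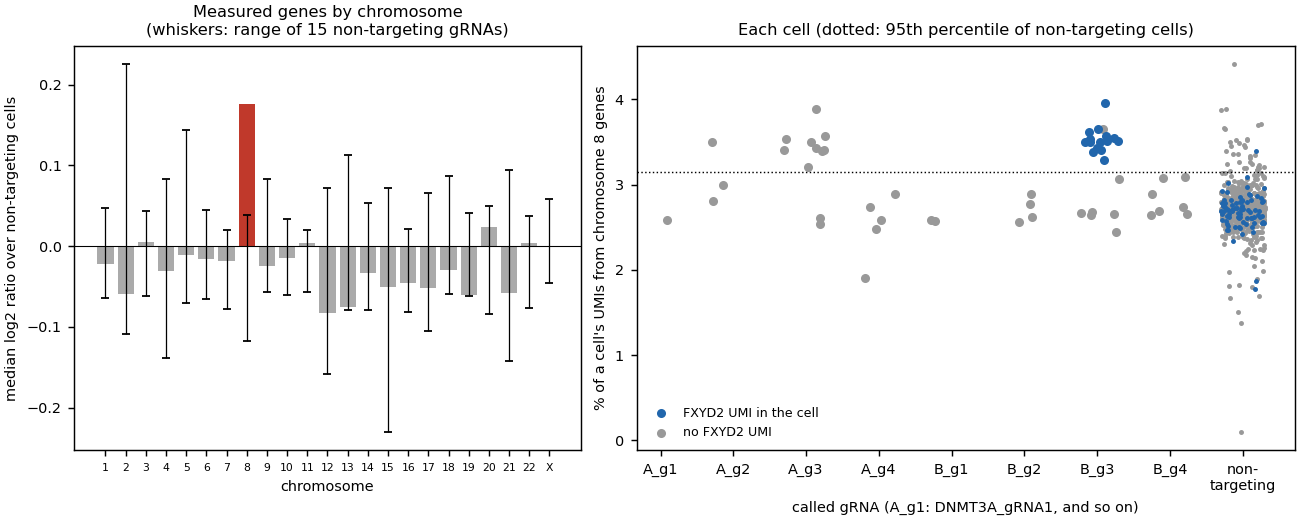
Left, the median log2 ratio of measured genes on each chromosome in the pooled DNMT3A or DNMT3B cells over non-targeting cells, with the range of 15 non-targeting gRNAs as whiskers. Right, the percent of each cell's UMIs from chromosome 8 genes by called gRNA (cells with an FXYD2 UMI in blue), where most DNMT3A_gRNA3 and DNMT3B_gRNA3 cells lie above the dotted limit of 3.14% and blue cells among the DNMT3 gRNAs are all of DNMT3B_gRNA3.

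Most genes differed little between the 2 pools. Over 7350 genes with a mean of at least 10 CPM the median log2 ratio of (CPM + 1) was -0.02, and 62.7% of genes lay within 0.2 of 0. At least 2-fold higher in the DNMT3A or DNMT3B cells were 11 genes (0.15%), and at least 2-fold lower were 19 (0.259%). Comparing single non-targeting gRNAs with the other non-targeting cells in the same way gave 0 to 157 genes higher and 0 to 206 lower, and CTRL00616, whose 51 cells and 1912655 UMIs were nearest in size, gave 6 higher and 4 lower. CTRL00405, with 76 cells, gave 4 and 0. Both had more UMIs than the pooled cells. Of the nearest with fewer UMIs, CTRL00320 (1236630 UMIs) gave 5 higher and 35 lower, and CTRL00080 (1192721 UMIs) gave 19 and 67. The 19 lower genes of the pool thus lay between the counts of the deeper and the shallower of these gRNAs, and the largest counts came from gRNAs with fewer cells. At the minimum of 10 CPM a gene had 18.0 UMIs in the pooled cells, against 252 in the non-targeting cells.

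Without DNMT3A_gRNA3 and DNMT3B_gRNA3 the 22 remaining cells gave 90 genes higher and 96 lower, with 4 of the 11 and 10 of the 19 genes kept, and the chromosome 8 median was 0.01. Leaving out single gRNAs, there were 21 genes higher without DNMT3A_gRNA4 and 35 without DNMT3B_gRNA3, and 33 lower without DNMT3A_gRNA3 as well as without DNMT3B_gRNA3. With the chromosome 8 genes left out, 8 of the 11 and all 19 were kept. The genes just inside the threshold were ZNF704 at 1.03 and B4GALT7 at -1.01, and just outside it lay NEFL (21.7 against 10.4 CPM) and KNSTRN (13.4 against 27.7 CPM), then TM4SF4 at 0.99 and KIF14 at -0.99.

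**Figure D3:**
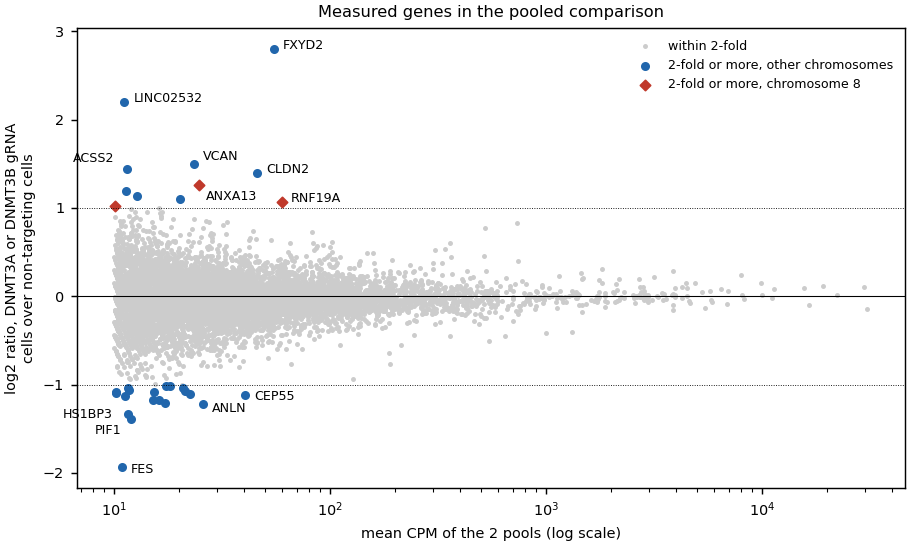
Log2 ratio of the pooled DNMT3A or DNMT3B gRNA cells over non-targeting cells against the mean CPM of both pools (log scale) for the 7350 measured genes. The 11 higher and 19 lower genes past 2-fold (dotted lines) lie mostly at the low end of expression, and red diamonds mark the 3 of them on chromosome 8.

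Several of the lower genes act in cell division. ANLN, the actin-binding protein anillin of the cleavage furrow, had 16.1 CPM with DNMT3A_gRNA3, 9.61 with DNMT3A_gRNA4, 19.9 with DNMT3B_gRNA3 and 0 with DNMT3B_gRNA4, against 36.5 CPM in non-targeting cells, whose single gRNAs ran between 19.6 and 47.9. The pool, at 41.2% of the non-targeting level (27.0 to 60.4%) and a log2 ratio of -1.22 (-1.91 without both gRNA3), was below all 15 non-targeting gRNAs. CEP55, which acts in the last separation of daughter cells, had 48.2 CPM with DNMT3A_gRNA3, 4.80 with DNMT3A_gRNA4, 23.9 with DNMT3B_gRNA3 and 39.5 with DNMT3B_gRNA4, against 55.5 CPM in non-targeting cells (43.1 to 67.9 by gRNA). Here only DNMT3A_gRNA3 reached the range of the non-targeting gRNAs, and the pooled log2 ratio was -1.12, and -1.97 without both gRNA3.

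The spindle genes among them gave similar ratios. KIF11, a mitotic kinesin that pushes spindle poles apart, had 18.7 CPM with DNMT3A_gRNA3, 4.80 with DNMT3A_gRNA4, 14.6 with DNMT3B_gRNA3 and 23.7 with DNMT3B_gRNA4, against 31.0 CPM in non-targeting cells (12.4 to 47.5 by gRNA), a pooled ratio of -1.10, and -1.48 without both gRNA3. NUF2, of the kinetochore complex that binds microtubules, had a ratio of -1.08 and lay below all 15 non-targeting gRNAs. The spindle checkpoint kinase BUB1 had -1.13, the cytokinesis regulator RACGAP1 -1.18, the spindle protein FAM83D -1.21 and SGO1, which protects sister chromatid cohesion, -1.03. For these 4 at least 1 non-targeting gRNA was as low as the pool. KIF11, ANLN, NUF2 and BUB1 belong to the G2/M list described below. PIF1, a helicase gene with a ratio of -1.39, had its 11 UMIs in 2 cells.

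The other lower genes did not share a role. FES, a tyrosine kinase best known from myeloid cells, was the lowest of all, at 3.90 CPM against 17.7 CPM in non-targeting cells (7 and 446 UMIs, log2 ratio -1.94, and -1.14 without both gRNA3). It had 2.68 CPM with DNMT3A_gRNA3, 9.61 with DNMT3A_gRNA4, 1.33 with DNMT3B_gRNA3 and 15.8 with DNMT3B_gRNA4, while single non-targeting gRNAs ran from 0 to 51.1 CPM, so its level varied widely without a target. HS1BP3 had 8.03, 4.80, 3.98 and 7.90 CPM with DNMT3A_gRNA3, DNMT3A_gRNA4, DNMT3B_gRNA3 and DNMT3B_gRNA4. All were below the 9.86 CPM of the lowest of the 15 non-targeting gRNAs, but rest on 3, 1, 3 and 1 UMIs. DNMT3A_gRNA1 had 29.9 CPM (1 UMI) and DNMT3B_gRNA2 14.7 CPM (2 UMIs), while DNMT3A_gRNA2 and DNMT3B_gRNA1 had 0. The pool had 6.12 CPM (11 UMIs in 11 cells), against 17.0 CPM in non-targeting cells, a log2 ratio of -1.34, and -1.09 without both gRNA3. TMEM156 (9.46 against 22.7 CPM), TAF1, the largest subunit of the general transcription factor TFIID (6.12 against 14.2 CPM), SCML1 (-1.09), the calcium-activated potassium channel gene KCNN4 (-1.08) and PHC2, a Polycomb subunit (-1.06), were likewise below all 15 non-targeting gRNAs, as were LMNB2, a nuclear lamin (-1.02), and B4GALT7 (-1.01). SBF2 (-1.03) lay below 14 of them. These genes, and the cell division genes above, were picked for low pooled ratios, so a place below the non-targeting gRNAs partly follows from the pick. The share of all measured genes that lie below all 15 is not given, so this place adds no support. Of the 19 lower genes, 17 lay on the lower side with all 4 gRNAs of at least 5 cells, the exceptions being PIF1 with DNMT3A_gRNA3 and NUF2 with DNMT3B_gRNA4. These gRNAs supplied most cells of the pool in which the genes were picked, so their agreement adds no support. A count of 0 also falls on the lower side. Over all measured genes, 660 lay on the lower side with all 4 gRNAs and in both the DNMT3A and the DNMT3B pools, and 329 on the higher side.

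None of the 11 higher genes was above the non-targeting pool with all 4 of these gRNAs. FXYD2, described above, led at 96.9 CPM against 13.1 CPM (log2 ratio 2.80), and the 22 cells without both gRNA3 held 0 of its UMIs. LINC02532, a long non-coding RNA, had 13.4 CPM with DNMT3A_gRNA3, 0 with DNMT3A_gRNA4, 31.9 with DNMT3B_gRNA3 and 23.7 with DNMT3B_gRNA4, against 3.34 CPM in non-targeting cells (0 to 6.18 by gRNA). It was spread over 18 cells, with a pooled ratio of 2.20, and of 0.96 without both gRNA3. VCAN, the matrix proteoglycan versican, was high in DNMT3B cells, at 51.8 CPM with DNMT3B_gRNA3 and 86.9 CPM with DNMT3B_gRNA4, against 11.8 CPM in non-targeting cells, and low with DNMT3A_gRNA3 at 2.68 CPM. The pool had 35.1 CPM, the log2 ratio was still 1.47 without both gRNA3, and 1 non-targeting gRNA had 49.4 CPM.

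Single cells made up much of some of the other higher genes. ACSS2, an acetyl-CoA synthetase, had 23 of its 31 UMIs in 1 DNMT3B_gRNA1 cell, and its ratio of 1.44 was -0.23 when more than 10 gRNA UMIs were required. CLDN2, a tight junction claudin, had 34 of 120 UMIs in 1 cell and a ratio of 1.40, and 1.69 without both gRNA3. Its pooled 66.8 CPM lay below the 92.7 CPM of 1 non-targeting gRNA. APBB1IP, which links small GTPases to integrins, had 53.5 CPM with DNMT3A_gRNA3 and 30.5 with DNMT3B_gRNA3 but 9.61 with DNMT3A_gRNA4, against 12.4 CPM in non-targeting cells, and -0.23 in place of 1.10 without both gRNA3. RNF19A, a ubiquitin ligase gene of chromosome 8, followed the split of that chromosome, at 112 CPM with DNMT3A_gRNA3, 33.6 with DNMT3A_gRNA4, 96.9 with DNMT3B_gRNA3 and 23.7 with DNMT3B_gRNA4, against 38.2 CPM in non-targeting cells (18.7 to 70.0 by gRNA), a ratio of 1.07 that was 0.27 without both gRNA3. ANXA13, an annexin gene of the same chromosome, had 48.2, 14.4, 55.8 and 0 CPM with the same gRNAs, against 14.1 CPM in non-targeting cells, and -1.46 in place of 1.26 without both gRNA3. ZNF704, also on chromosome 8, NTRK3, a neurotrophin receptor gene (1.20), and CPS1, the first enzyme of the urea cycle (1.14), complete the 11.

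The genes above the non-targeting pool with all 4 gRNAs did not reach a log2 ratio of 1 with 1 CPM added. CCL2, a chemokine that draws monocytes, had 34.8 CPM with DNMT3A_gRNA3, 14.4 with DNMT3A_gRNA4, 18.6 with DNMT3B_gRNA3 and 39.5 with DNMT3B_gRNA4, against 10.8 CPM in non-targeting cells (3.46 to 18.4 by gRNA). The pooled 21.7 CPM was above all 15 non-targeting gRNAs, at 202% of the non-targeting level (140 to 283%). SNAP25, a SNARE protein of vesicle fusion known from neurons, had 13.4, 28.8, 15.9 and 39.5 CPM in the same order, against 8.11 CPM in non-targeting cells (0 to 13.8 by gRNA), and 206% in the pool (135 to 303%). Without both gRNA3 the log2 ratio was 0.69 for CCL2, in place of 0.95, and 1.16 for SNAP25, in place of 0.96. STAU2, an RNA-binding protein gene on chromosome 8, had 30.6 CPM against 16.3 CPM. GCHFR, which feeds back on tetrahydrobiopterin synthesis, had 34.5 CPM against 18.7 CPM, and TFIP11, a factor in spliceosome disassembly, 19.5 CPM against 10.9 CPM. The pools of SNAP25, CCL2, STAU2 and TFIP11 were above all 15 non-targeting gRNAs, and that of GCHFR above 14. As these genes were picked for high pooled ratios, this partly follows from the pick, and the share of all measured genes above all 15 is not given. CCNJL (0.91), TRAPPC6B (0.82), YPEL2 (0.80) and the unnamed transcripts AC009133.1 (0.88) and AC138150.2 (0.86) complete the 10 highest genes of this kind.

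**Figure D4:**
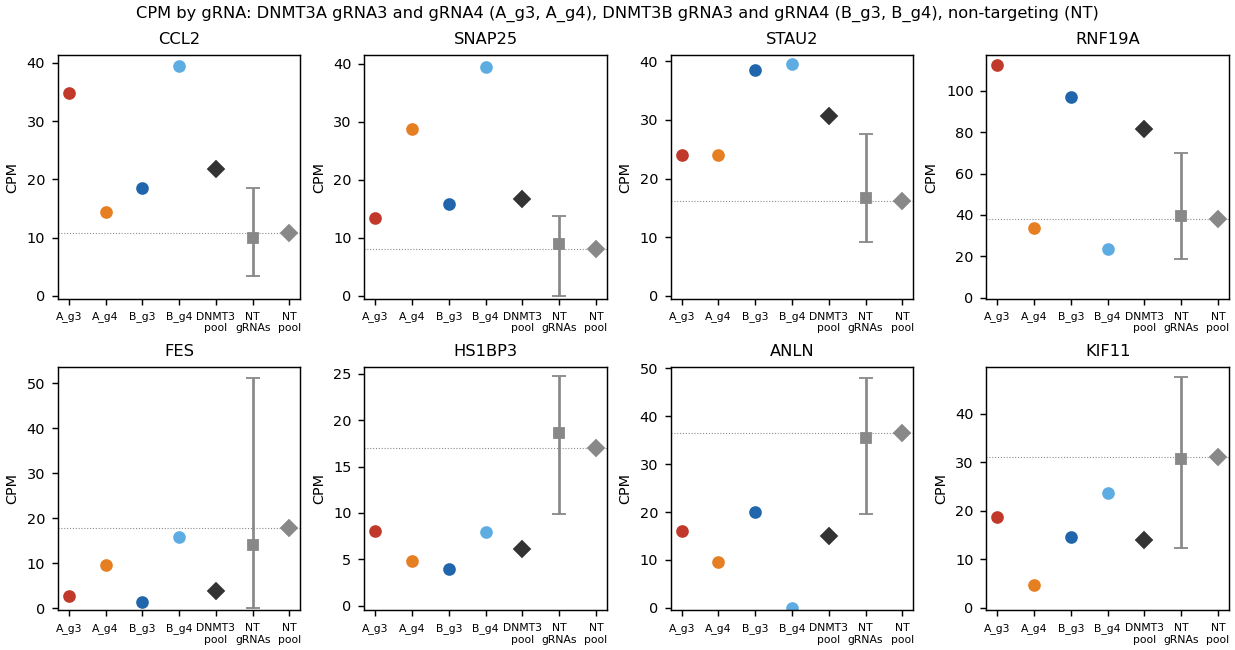
CPM of 4 higher genes (top) and 4 lower genes (bottom) with each of the 4 gRNAs of at least 5 cells, in the pool of all DNMT3A or DNMT3B cells, over single non-targeting gRNAs (median with the range of 15) and in the non-targeting pool (dotted line). CCL2, SNAP25 and STAU2 lie above the line with all 4 gRNAs, RNF19A only with both gRNA3, and the lower genes below the line with all 4.

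Pooled separately, the 2 targets gave longer lists, which share genes with the pooled one. DNMT3A cells alone had 56 genes higher (0.767%) and 79 lower (1.08%) of 7304, and DNMT3B cells alone had 34 higher (0.464%) and 53 lower (0.723%) of 7330. At 10 CPM a gene had 7.08 UMIs in DNMT3A cells and 10.9 UMIs in DNMT3B cells. Set directly against each other, 163 of 7270 genes were at least 2-fold higher in DNMT3A cells and 169 in DNMT3B cells. Single gRNAs gave still longer lists against the non-targeting cells, 177 higher and 318 lower with DNMT3A_gRNA3, 437 and 490 with DNMT3A_gRNA4, 55 and 114 with DNMT3B_gRNA3 and 1016 and 664 with DNMT3B_gRNA4, the shallowest of them.

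In DNMT3A cells the highest genes were CLDN2 (113 CPM against 24.8 CPM in non-targeting cells, log2 ratio 2.15), the tetraspanin-like gene TM4SF20 (1.94), NTRK3 (1.66), DPYSL5, known from growing neurites (1.59), and SLC51B, a subunit of the bile acid exporter (1.52). CLDN2 had 43 of its 80 UMIs in the 3 cells of DNMT3A_gRNA2, and 93.7 CPM with DNMT3A_gRNA3 but 9.61 with DNMT3A_gRNA4. NTRK3 had 29.4 CPM with DNMT3A_gRNA3 and 0 with DNMT3A_gRNA4. Single non-targeting gRNAs reached 92.7 CPM for CLDN2 and 30.9 CPM for NTRK3. TM4SF20 had 56.2 CPM with DNMT3A_gRNA3 and 4.80 with DNMT3A_gRNA4, whereas DPYSL5 (16.1 and 14.4 CPM) and SLC51B (18.7 and 14.4 CPM) were high with both. For DPYSL5 and SLC51B the DNMT3A_gRNA4 value stands for 3 UMIs each. All 5 genes were picked as high in a pool made mostly of these 2 gRNAs, so their agreement adds no support. In DNMT3B cells TM4SF20 was at -0.53, DPYSL5 at 0.25 and SLC51B at 0.04. The lowest genes of DNMT3A cells were ATP6V1A, the catalytic subunit of the vacuolar proton pump (-1.94), KCNN4 (-1.73), SYNPO (-1.68), FAM111A (-1.64) and PDK4, a kinase that shuts down pyruvate dehydrogenase (-1.60). In DNMT3B cells ATP6V1A was at 0.02 and SYNPO at 0.06, so these were low in DNMT3A cells and close to the non-targeting level in DNMT3B cells, a difference that rests on 3 UMIs for each gene in DNMT3A cells and was not tested.

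In DNMT3B cells the highest genes were FXYD2 (3.51), LINC02532 (2.57), the chloride channel family gene CLIC3 (2.14), OLFML3 (1.93) and ACSS2 (1.89). CLIC3 had 15 of 21 UMIs in 1 cell, and all 22 UMIs of OLFML3 were in DNMT3B_gRNA3 cells. The lowest were FES (-2.32), PIF1 (-2.31), the caspase gene CASP6 (-1.69), CLCN3, a chloride-proton exchanger of endosomes (-1.64), and PHC2 (-1.62). CASP6 had 21.4 and 19.2 CPM with the 2 DNMT3A gRNAs and 3.98 and 7.90 CPM with the 2 DNMT3B gRNAs, against 23.1 CPM in non-targeting cells (13.6 to 31.5 by gRNA). CLCN3 had 13.4, 14.4, 3.98 and 7.90 CPM with the same gRNAs, against 16.5 CPM. For both genes the DNMT3B values stand for 3 UMIs with DNMT3B_gRNA3 and 1 UMI with DNMT3B_gRNA4. Both were picked as low in the DNMT3B pool, so low values with its gRNAs follow from the pick. The difference between the 2 targets was not tested.

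Gene lists were then read by their medians, beside the median of -0.02 over all genes. For the ranges given with them, each non-targeting gRNA was set against the whole non-targeting pool, its own cells included, which can narrow a range. The DNA methylation machinery (maintenance, removal, readers and partner enzymes, without the 2 targets) had 24 of 34 members measured, none of them past 2-fold. Of the measured members 19 were below and 5 above 0, while 54.1% of all genes were below 0. The median of the list was -0.19 in the pool (-0.09 in DNMT3A cells, -0.29 in DNMT3B cells), below the range of -0.13 to 0.24 over single non-targeting gRNAs. The median was inside that range without DNMT3B_gRNA3 (-0.078) and at a minimum of 50 CPM (-0.10), and was -0.24 without both gRNA3. Summed over its members it had 1152 CPM, against 1270 CPM in non-targeting cells, or 90.7% (86.7 to 94.9%). Its lowest members were the stress gene GADD45A, linked to demethylation (22.8 against 33.4 CPM, -0.53), and the methyl-CpG reader ZBTB4 (-0.47), followed by the glycosylase TDG, which excises oxidised methylcytosine (-0.42), and DNMT1 (-0.40). The highest were SETD2, which writes the H3K36 mark that DNMT3B reads (0.32), and UHRF2, the relative of UHRF1 (13.4 against 10.5 CPM, 0.32). SETD2 was at 0.71 in DNMT3A cells (108 to 244% of the non-targeting level) and 0.00 in DNMT3B cells (64.2 to 149%). UHRF2 was at -1.14 in DNMT3A cells, with 3 UMIs or 4.24 CPM (8.24 to 119%). In DNMT3B cells it was at 0.82, with 19.3 CPM (112 to 286%). The differences between the 2 targets were not tested.

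Germline and cancer-testis genes, many of which are silenced by promoter methylation, were nearly absent. Of 78 genes only PRAME was measured, at 64.0 CPM against 69.9 CPM in non-targeting cells. The other 77 had 18 UMIs (10.0 CPM) in the DNMT3A or DNMT3B cells, against 379 UMIs (15.1 CPM) in non-targeting cells, while 82 cells with DNMT1 gRNAs had 1362 UMIs (516 CPM). VCX, PAGE2B, MAGEA4 and SPANXB1, chosen for their levels in DNMT1 cells, had 0 UMIs in the DNMT3A or DNMT3B cells, against 2, 1, 0 and 18 UMIs in non-targeting cells, and 192, 135, 125 and 213 UMIs in DNMT1 cells. The level seen with DNMT1 gRNAs was thus far above what the DNMT3A or DNMT3B cells held. Imprinted genes, which need de novo methylation in the germline, had a median of -0.04 over 17 measured genes (0.075 without both gRNA3), from -0.37 for PPP1R9A to 0.52 for ZNF331, with the maternally expressed MEG3 at -0.23 and the paternally expressed MEST at 0.21 (23.4 against 20.1 CPM). Interferon-stimulated genes, known to respond to transcribed repeats, had a median of 0.13 over 11 genes, inside the range of single non-targeting gRNAs (-0.31 to 0.56), and 0.37 without both gRNA3. IFITM3, an antiviral membrane protein (18.9 against 12.5 CPM), was the highest of that list, and HERC5 (10.0 against 15.6 CPM) and IFI35 (26.2 against 37.7 CPM) were the lowest.

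Genes of G2 and mitosis gave the lowest median. Of 50 measured genes 49 were below 0, against 54.1% of all genes, 4 of them past 2-fold (ANLN, BUB1, KIF11 and NUF2), against 0.259% of all genes, and only LBR, a receptor of the nuclear lamina, was above it (0.05). The median was -0.40 in the pool, -0.25 in DNMT3A cells and -0.58 in DNMT3B cells, and -0.53 without both gRNA3. The summed level was 3079 CPM, against 4113 CPM in non-targeting cells, or 74.9% (72.9 to 76.9%), and was 3847 CPM with DNMT3A_gRNA3, 1874 with DNMT3A_gRNA4, 3036 with DNMT3B_gRNA3 and 2362 with DNMT3B_gRNA4. Single non-targeting gRNAs had medians from -0.70 to 0.41 and sums from 2606 to 5699 CPM, ranges that hold the pooled values. Set against the other non-targeting cells, only CTRL00018, with 15 cells, had a median below the pooled one, at -0.66. The next lowest was CTRL00484 at -0.31, and CTRL00616, the nearest in size to the pool, was at -0.07. By cell the list took a median of 0.120% of UMIs in the DNMT3A or DNMT3B cells, against 0.176% in non-targeting cells, and 11 of 55 cells (interval 10.4 to 33.0%) lay above 0.529%, the 75th percentile of non-targeting cells, against 174 of 696 (25.0%). Non-targeting gRNAs had 13.3 to 42.4% of their cells above it.

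Epithelial and mesenchymal genes were the other list outside the range of single non-targeting gRNAs. With 12 of 14 lists inside their ranges, whether the lists outside exceed the spread between gRNAs was not tested. Of 15 measured genes 12 were above 0, against 45.9% of all genes, and 1, CLDN2, was at least 2-fold higher, against 0.15% of all genes. The median of the list was 0.21 (0.18 in DNMT3A cells, 0.28 in DNMT3B cells), against -0.27 to 0.16 for non-targeting gRNAs. The median was inside that range without CTRL00022 (0.15) and in 7 of 12 alternatives other than leaving out 1 gRNA (0.070 to 0.16), and was 0.36 without both gRNA3. KRT19, a keratin of simple epithelia, had 1189 CPM with DNMT3A_gRNA3, 375 with DNMT3A_gRNA4, 1274 with DNMT3B_gRNA3 and 150.1 with DNMT3B_gRNA4, and 937 CPM in the pool, against 526 CPM in non-targeting cells (257 to 746 by gRNA). Of the 4 gRNAs it was high with both gRNA3, and its log2 ratio of 0.83 was -0.34 without them. The 2 DNMT3B_gRNA1 cells had 1299 CPM (94 UMIs) with no raised chromosome 8 share. KRT19 lies on chromosome 17, and whether its level goes with the chromosome 8 share was not tested. The junction protein TJP1 (113 against 119 CPM) and the transcription factor TWIST1 (-0.16) were the lowest members of the list.

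Secretory epithelial genes had the highest median, 0.38 over 7 genes, within a wide range of -1.77 to 0.49 over non-targeting gRNAs, and -0.33 without both gRNA3. CEACAM6, an adhesion molecule, had all its 39 UMIs in 5 cells of DNMT3B_gRNA3, and the mucin MUC5AC had 8.91 against 15.8 CPM. Genes of cholesterol synthesis had a median of 0.12 over 19 genes (0.40 without both gRNA3). Of these genes 14 were above 0, against 45.9% of all genes, led by STARD4, a sterol carrier (0.72), and FDFT1, squalene synthase (115 against 82.9 CPM, on chromosome 8). The medians of p53 targets (0.02), S phase genes (-0.08), NRF2 targets (-0.01), ATF4 stress genes (-0.08), heat shock and immediate early genes (-0.04), mitochondrially encoded mRNAs (0.08) and cytosolic ribosomal protein genes (-0.01) all lay within the range of single non-targeting gRNAs, as did 12 of the 14 lists with at least 5 measured members in all.

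**Figure D5:**
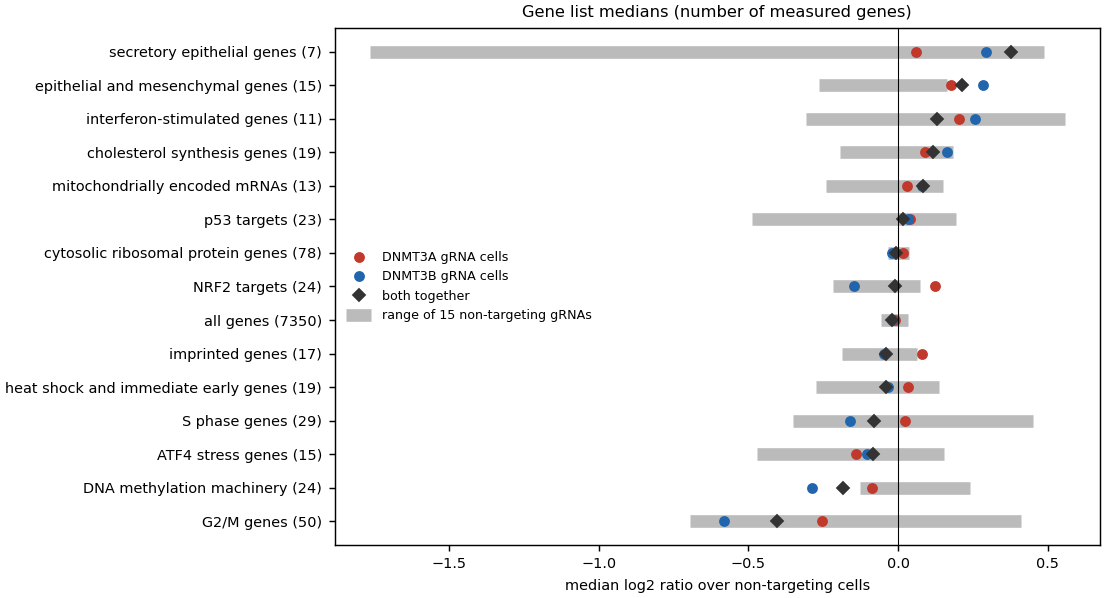
Median log2 ratio over non-targeting cells of each gene list (measured genes in brackets) in DNMT3A cells, DNMT3B cells and both together, with the range of 15 non-targeting gRNAs in grey. The pooled medians (diamonds) lie outside the grey range for the DNA methylation machinery, at -0.19 (-0.078, inside it, without DNMT3B_gRNA3), and for epithelial and mesenchymal genes, at 0.21 (0.15, inside it, without CTRL00022).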

How the data were processed

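The deposited counts are whole numbers of UMIs per gene or gRNA and cell, made by the authors with Cell Ranger 3.1.0 against GRCh38, with barcodes and UMIs collapsed, gRNA reads counted to the designed spacers and no normalization. The authors state that Cell Ranger takes a gRNA with 1 mismatch as intact. They report that some cells annotated with a single intact gRNA expressed a mutant one, and that mutant gRNAs appear to be dysfunctional. Whether cells compared here carried mutant gRNAs was not examined. The submitters' notes also list R 4.2.0 and Seurat 4.1.0. Cells were taken as deposited, without a doublet caller beyond the rule of 1 gRNA. UMIs were pooled by group and scaled to CPM. Ratios were formed on the log2 scale with 1 CPM added to each level, over genes with a mean of at least 10 CPM in the 2 pools (Python 3.11.15, NumPy 2.4.6, SciPy 1.17.1, pandas 2.3.3, matplotlib 3.10.9). Called means at least 2-fold. The procedure was checked on simulated data. Ratios of counts carry exact 95% intervals from the binomial split of UMIs between the pools. Chromosomes came from GENCODE 44, which placed 33113 of 33538 genes, and target sites from exact matches to GRCh38. Named were the targets, the 10 highest and 10 lowest genes on 1 side with all gRNAs of at least 5 cells, the 5 highest and lowest per target, the 2 highest and lowest per list, and 4 germline genes. The other genes past 2-fold, the genes just outside the threshold, further list members and the chromosome 8 genes were chosen after their values were seen. Members and lists were chosen with earlier results of these data known.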

Additional observations from a re-analysis of the deposited data

How the results depend on the processing

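With 1 culture there is no test to lose, so the alternatives show how far the values move. No paired analysis was possible because 1 library holds all groups and no result comes from a test. Of 31 alternatives, 19 left out 1 gRNA each. Counts of genes past 2-fold moved most. In the pooled comparison the 11 higher and 19 lower genes were 4 and 0 with 10 CPM added in place of 1, 2 and 0 at a minimum of 50 CPM, 51 and 90 at a minimum of 3 CPM, 154 and 290 with no minimum, 20 and 35 when scaled without mitochondrial and ribosomal protein genes, 7 and 9 against cells of the other 23 targets, and 22 higher as a mean over cells. For DNMT3A cells the 56 higher and 79 lower genes were 6 and 6 with 10 CPM added, 4 and 3 at 50 CPM, 221 and 369 at 3 CPM, 685 and 1143 with no minimum, and 113 and 176 with the other scaling. For DNMT3B cells the 34 higher and 53 lower genes were 8 and 5 with 10 CPM added, 3 and 1 at 50 CPM, 142 and 248 at 3 CPM, 339 and 707 with no minimum, 70 and 95 with the other scaling, and 56 higher as a mean over cells.

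Leaving out DNMT3A_gRNA3 and DNMT3B_gRNA3 together, chosen after seeing the data, left 22 cells and gave 90 higher and 96 lower genes in the pool, 223 and 290 in DNMT3A cells and 329 and 304 in DNMT3B cells. The DNMT3B level in DNMT3B cells became 0% and the chromosome 8 median 0.0066 (0.00 with no minimum). List medians became 0.40 for cholesterol synthesis, 0.36 for epithelial and mesenchymal genes, 0.075 for imprinted genes, 0.37 for interferon-stimulated genes and -0.33 for secretory genes. The log2 ratio became -1.46 for ANXA13, -0.23 for APBB1IP and -3.82 for FXYD2 (also -3.82 without DNMT3B_gRNA3 alone), the last at 0 UMIs and so set by the 1 CPM added. Leaving out 1 gRNA at a time, FXYD2 ran from -3.82 to 3.18. ACSS2 was at -0.24 where the called gRNA held at least 80% of gRNA UMIs and at -0.23 above 10 gRNA UMIs. As a mean over cells the median was 0.32 for cholesterol synthesis and -0.033 for mitochondrially encoded mRNAs, and with no minimum 0.070 for epithelial and mesenchymal genes.

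Leaving out 1 gRNA at a time gave 10 to 35 higher and 17 to 33 lower genes in the pool, 54 to 223 and 78 to 290 in DNMT3A cells, and 31 to 329 and 47 to 304 in DNMT3B cells, the highest of DNMT3A cells without DNMT3A_gRNA3 (106 and 168 without DNMT3A_gRNA4) and those of DNMT3B cells without DNMT3B_gRNA3. The DNMT3A level ran from 63.9 to 93.2% and the DNMT3B level from 0 to 50.3%. Medians ran from 0.10 to 0.22 for chromosome 8, -0.55 to -0.34 for G2/M, -0.25 to -0.078 for DNA methylation machinery, 0.15 to 0.33 for epithelial and mesenchymal genes, -0.10 to -0.03 for ATF4, -0.06 to 0.07 for NRF2, -0.15 to -0.05 for S phase, 0.075 to 0.30 for cholesterol, -0.02 to 0.01 for ribosomal, -0.12 to -0.01 for heat shock, -0.068 to 0.13 for imprinted, 0.10 to 0.30 for interferon-stimulated, 0.06 to 0.09 for mitochondrial, -0.06 to 0.07 for p53 and -0.01 to 0.43 for secretory genes. Of 107 named genes over the other 12 alternatives, 5 values of genes past 2-fold changed sign, and of the rest 1190 stayed within the gene's counting interval and 79 left it. The cause of these moves was not tested, and depth limits the comparison most where a gene has few UMIs.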
